A study of Mus musculus with 6 samples.

Results

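The cytosolic ribosomal protein genes encode the proteins of the large (60S) and small (40S) subunits of the ribosome that translates nuclear-encoded mRNA. Members were the genes whose symbol is Rpl or Rps followed by a number, with an optional a, x or l ending, together with Rplp0, Rplp1, Rplp2 and Rpsa. Pseudogenes, S6 kinase genes and genes with a mean normalized count under 50 over all libraries were left out. Of 83 genes whose symbols fit, 76 were members, 45 of the large and 31 of the small subunit, among 56748 genes in the table and 16162 tested. The rule used the mean over all 6 libraries and no difference between groups.

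The poly(A)-selected, stranded RNA libraries came from brain tissue of mice carrying implanted MCF10DCIS cells, human breast cells that form lesions like ductal carcinoma in situ. These cells were tagged with CD63-NanoLuC (CD63-NLuc in the library names), in which the luciferase NanoLuc is joined to the tetraspanin CD63, a marker of exosomes. Tissue was collected at 3 days (3 libraries) or 28 days (3 libraries), and the comparison asked how brain gene expression differed between those times. All 6 libraries carry the implant, the labels set the groups apart by time alone, and mice without an implant were not analysed here. Strain, sex and age of the mice, the site of implantation and whether each library is 1 animal are not given in the sources used here, so the p-values rest on differences among these libraries that may be only technical. Some libraries stood apart in other gene lists: day 3 replicates 1 and 2 in cerebellar genes, replicate 1 also in interferon-stimulated genes and replicate 2 in liver genes. Results are therefore also given without these libraries. In bulk tissue, fewer cells of a type and less RNA per cell cannot be told apart.

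A ribosome holds nearly all of these proteins in equal number, and their genes are active at high levels in every protein-making cell, neurons and glia included. Their mRNAs are short and typically begin with a C followed by an unbroken stretch of pyrimidines, the terminal oligopyrimidine (TOP) tract, through which the mTOR pathway and the protein LARP1 govern how much of the mRNA is translated. The genes have left many processed pseudogenes in the genome, so that some reads can be assigned to more than 1 place.

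The sequences at the annotated start are shown for 9 of the genes whose values follow, to set starts with this tract beside starts without it. RefSeq starts (build GRCm38.p6, an older build than the GRCm39 of the submitters' processing notes) were found by symbol for 55 of the 76 members, with 66 starts in all. Each line gives 15 bases before and 15 bases from the start on, 5′ to 3′. Capitals mark a C within 2 bases of the start and the run of C or T that follows it, where it holds at least 4 such bases. The first 6 genes have such a run at the start shown, and the last 3 do not. For genes with several starts 1 is shown, the one with the run where there is such a start. The other starts of Rpl35a and Rps27l have no such run, and neither has the other start of Rpl22.
Rps6 (chr4:86857353-86857382, minus strand): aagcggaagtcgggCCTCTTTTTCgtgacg
Rpl18 (chr7:45718056-45718085, plus strand): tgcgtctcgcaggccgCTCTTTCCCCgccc
Rplp2 (chr7:141447636-141447665, plus strand): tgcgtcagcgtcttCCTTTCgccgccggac
Rpl35a (chr16:33056467-33056496, plus strand): gcggggcttgccttCCTCTTTCCgccatct
Rpl12 (chr2:32961697-32961726, plus strand): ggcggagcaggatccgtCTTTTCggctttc
Rps27l (chr9:66946071-66946100, plus strand): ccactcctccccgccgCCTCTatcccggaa
Rplp0 (chr5:115559452-115559481, plus strand): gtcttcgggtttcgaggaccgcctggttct
Rpl22 (chr4:152325711-152325740, plus strand): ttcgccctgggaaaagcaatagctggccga
Rpsa (chr9:120127751-120127780, plus strand): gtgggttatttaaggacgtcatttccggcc

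A C followed by at least 4 C or T, alone or inside a longer run, stood exactly at the annotated start in 12 of 66 member starts (18.2%), against 2.51% of all 32851 RefSeq starts. Within 2 bases of the start one was found in 31.8% against 8.96%, and within 10 bases in 54.5% against 30.7%. Of the 300 bases around the start (250 before, 50 after), read on both strands, 36.4% of the members' windows held CCGGAAG, a core that ETS-family factors bind, against 8.86% of all windows. ATGGCG, part of the site bound by YY1, stood in 30.3% against 8.93%. GGGCGG, the core of an Sp1 site, stood in 60.6% against 35.7%, and the TATA box TATAAA in 9.09% against 13.6%. None of these 4 motifs contains another. A match is a description of the letters, annotated starts can lie several bases from the true one, and no binding was measured here.

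**Figure D1:**
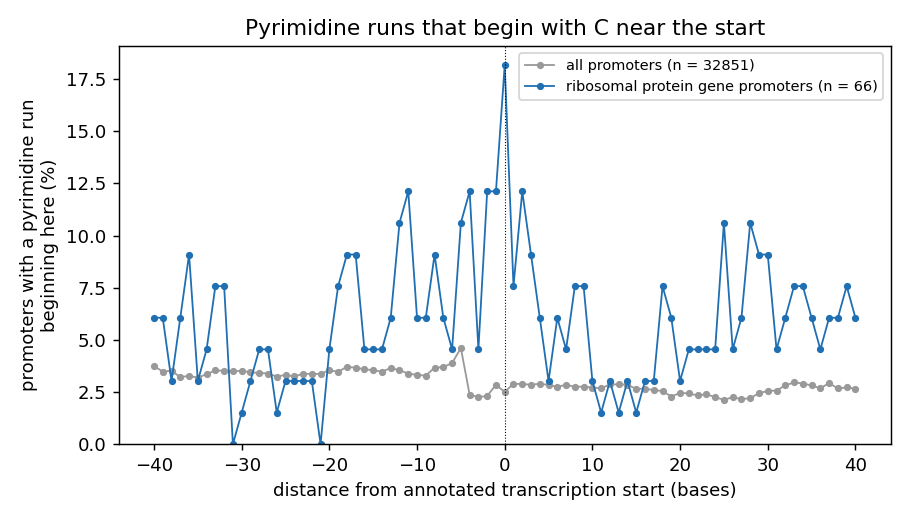
Share of annotated starts with a C that is followed by at least 4 C or T (vertical axis, percent), by distance from the start in bases (horizontal axis), for 66 starts of ribosomal protein genes (blue) and 32851 starts of all genes (grey). The members' curve is highest at distance 0, at 18.2%, where the curve of all genes stands at 2.51%.

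None of the 76 genes passed the test between day 3 and day 28. With limma and Benjamini-Hochberg adjustment over all 16162 genes, 0 members passed an adjusted p of 0.05, against 0.192% of all tested genes (0.0681% higher and 0.124% lower at day 28). The smallest adjusted p of a member was 0.224. With an unadjusted p under 0.05, 1 member passed, Rpl18, against 13.4% of all tested genes. Voom, which weights the recovered reads, called 0 of all 16162 genes after adjustment, so its 0 calls among the members tell nothing about them. The median difference (day 28 minus day 3, on the log2(normalized count + 1) scale) was -0.04 over the members and -0.01 over all tested genes. The difference was negative in 54 members and positive in 22 (negative in 38 with upper-quartile scaling, which moved the median of all tested genes to 0.03), and 51.4% of all tested genes had a negative one.

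Most differences were small, and all but that of Rpl18 had a 95% interval that spanned 0. In 46 of 76 members the difference was under 0.1 in size, against 28.9% of all tested genes. The latter were not matched to the members for level, and the median SE was 0.12 in the members and 0.18 in all tested genes. A difference over 0.2 in size was found in 6 members. The median size was 0.07 over the members and 0.19 over all tested genes. For this count and for the interval bounds that follow, no share of all tested genes is given here. The 95% interval lay between -0.5 and 0.5 in 70 members and between -1 and 1, a 2-fold change either way, in 74. The exceptions to the wider bound were Rps4l and Rps27l, the members with the lowest levels. The median distance from the estimate to the end of its interval was 0.278. These bounds state what size of change the data leave room for, since a p that misses the threshold does not show equal levels.

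**Figure D2:**
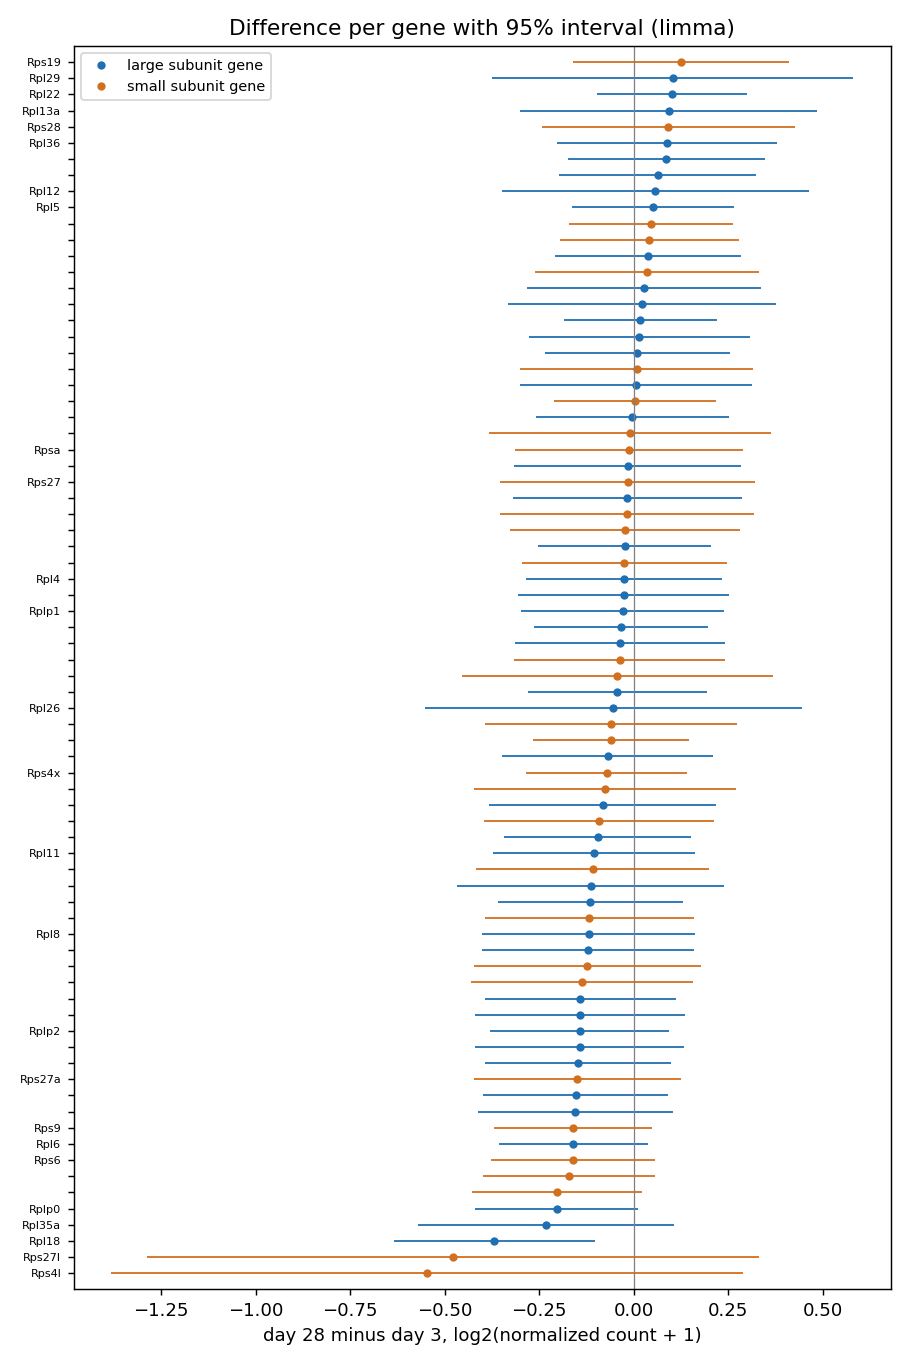
Difference between day 28 and day 3 for each of the 76 genes on the log2(normalized count + 1) scale (horizontal axis), with its 95% interval from limma, sorted by size and coloured by subunit, with names for some of the genes. The interval of Rpl18 lies below 0 and those of all other genes span 0, with the widest for Rps4l and Rps27l.

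Among the large subunit genes, Rpl18 (ENSMUSG00000059070) had the smallest p. Its protein is a core component of the 60S subunit. Rpl18 stood at 1037, 1270 and 1106 normalized counts in replicates 1 to 3 of day 3, against 864.5, 976.8 and 800.9 at day 28. Every day 28 library lay below every day 3 library. The log2 difference was -0.37 (SE 0.12, 95% interval -0.63 to -0.10), which did not pass (limma adjusted p = 0.224).

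Rpl35a, another protein of the 60S subunit, stood at 283, 296.1 and 279.9 normalized counts at day 3, against 217.6, 231.3 and 287.2 at day 28. Its day 3 values were close together, and day 28 replicate 3 lay among them (log2 difference -0.23, SE 0.15, limma adjusted p = 0.544).

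Besides Rpl18, groups did not overlap for 3 members, so that 4 of 76 (5.26%) were separated, against 18.9% of all tested genes. Of these, 3 were lower at day 28 (9.21% of all tested genes were) and 1 was higher (9.71%). Rplp0 (ENSMUSG00000067274), the base of the stalk that recruits elongation factors and a common reference gene in PCR, stood at 2340, 2755 and 2370 normalized counts at day 3, against 2059, 2264 and 2142 at day 28. Its log2 difference was -0.20 (SE 0.09, limma adjusted p = 0.395), with the day 3 values higher. Rps9 (ENSMUSG00000006333), a small subunit protein, was also lower in each day 28 library, with 2354, 2813 and 2518 against 2300, 2354 and 2210 normalized counts and a log2 difference of -0.16 (limma adjusted p = 0.496). Its highest day 28 value and its lowest day 3 value were nearly the same. Rpl22 (ENSMUSG00000028936), a large subunit protein that also binds RNA outside the ribosome, was the member with higher values at day 28. Its normalized counts were 879.3, 915.1 and 920.1 at day 3, against 976.3, 986.7 and 947.8 at day 28, a log2 difference of 0.10 (SE 0.09, limma adjusted p = 0.661). It also had a small spread over the 6 libraries (SD 0.06 on the log2 scale), where the median member had 0.16.

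Together with Rplp0, the paired proteins Rplp1 and Rplp2 form the stalk, and all 3 genes had a negative difference, with a median of -0.14 (with upper-quartile scaling that of Rplp1 was 0.01). Rplp1 had the highest level per length of all members, 9512 normalized counts per kb of transcript. Its normalized counts were 4076, 5426 and 4918 at day 3, against 4720, 5036 and 4302 at day 28, so that the groups overlapped. Rplp2 stood at 1273, 1456 and 1536 normalized counts at day 3, against 1215, 1388 and 1255 at day 28, again overlapping. The log2 differences of Rplp1 and Rplp2 were -0.03 and -0.14 (limma adjusted p = 0.945 and 0.595).

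The 9 members at or near the tunnel through which the new protein leaves the ribosome had a median difference of -0.02 and a range from -0.14 to 0.10. Rpl4, which lines the tunnel, stood at 4675, 6188 and 6035 normalized counts at day 3, against 5491, 5562 and 5425 at day 28. Day 3 replicate 1 was the lowest library and the other day 3 libraries the highest, so the day 3 values enclosed those of day 28. Rpl5 and Rpl11 form a particle with the 5S RNA, which can also hold back the p53 regulator MDM2 when assembly is disturbed. Rpl5 had a log2 difference of 0.05 (95% interval -0.16 to 0.27) and Rpl11 of -0.11 (95% interval -0.37 to 0.16).

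Of the small subunit genes, 24 of 31 had a negative difference and the median was -0.06, beside 30 of 45 and -0.03 for the large subunit. The 6 members of the mRNA channel and decoding region had differences from -0.14 to 0.04. Rpsa, which also gives rise to a laminin-binding protein at the cell surface, stood at 4029, 5739 and 5344 normalized counts at day 3, against 5154, 5078 and 4609 at day 28. Its log2 difference was -0.01 (SE 0.13, 95% interval -0.31 to 0.29), and the lowest and the highest values were both at day 3.

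Rps6, the protein that S6 kinases phosphorylate downstream of mTOR, stood at 2355, 2823 and 2615 normalized counts at day 3, against 2205, 2441 and 2313 at day 28. The groups overlapped through day 3 replicate 1, and the log2 difference was -0.16 (SE 0.09, limma adjusted p = 0.506). Rps27a, made as a fusion with ubiquitin, had 1384, 1586 and 1789 normalized counts at day 3, against 1458, 1553 and 1274 at day 28. These values overlapped (log2 difference -0.15, limma adjusted p = 0.639). Rpl6, a protein of the 60S subunit, had a log2 difference of -0.16 (limma adjusted p = 0.467). At the other end, Rps19, which is mutated in an inherited anaemia, had the most positive difference, 0.13 (SE 0.13, limma adjusted p = 0.715). It was followed by Rpl29, Rpl22, Rpl13a, Rps28 and Rpl36 with 0.09 to 0.10.

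Rps27l and Rps4l, paralogs of Rps27 and Rps4x, had the widest spread. Rps27l, which is also a p53 target gene, stood at 82.4, 135.7 and 49.9 normalized counts at day 3, against 60.9, 58.0 and 57.8 at day 28. The day 3 libraries ran from below to above all those of day 28, and the log2 difference of -0.48 (SE 0.36) did not pass (limma adjusted p = 0.602). With day 3 replicate 2 left out it was -0.12, with replicate 3 of that day left out -0.83, and with replicates 1 and 2 of that day left out 0.24. Rps27 itself had a difference of -0.02 and 718.1 to 1043 normalized counts. Rps4l stood at 95.3, 83.3 and 121.7 normalized counts at day 3, against 45.9, 120.5 and 55.0 at day 28. Day 28 replicate 2 lay with the highest day 3 library, and the log2 difference was -0.55 (SE 0.37, limma adjusted p = 0.56). With day 28 replicate 2 left out it was -0.96, and with replicate 1 of that day left out -0.28. Rps4x, the X-linked parent, had a difference of -0.07 (95% interval -0.28 to 0.14). Of the 50-base stretches of the transcripts of Rps27l and Rps4l, 77.6% and 82.0% occur in no other gene, beside 43.5% in the median member. For 100-base stretches the shares are 100% and 98.0%. Reads from shared stretches could be assigned elsewhere, but such stretches are a smaller part of these transcripts than in the median member.

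**Figure D3:**
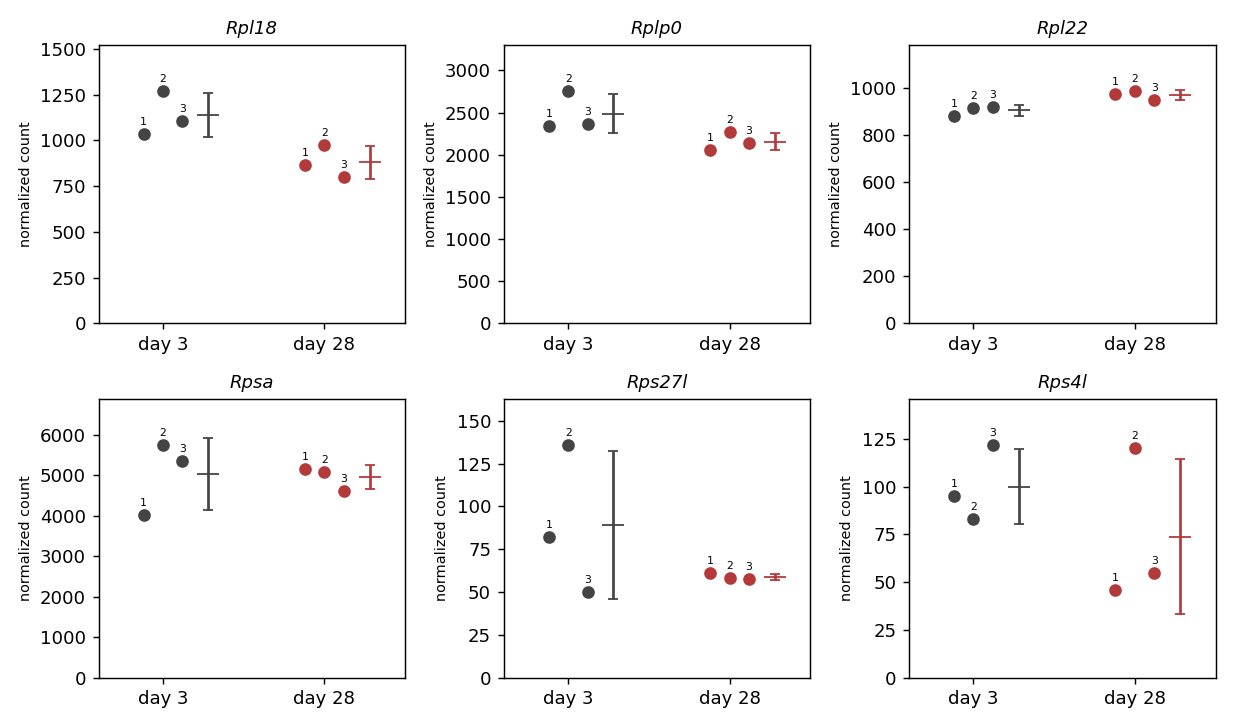
Normalized counts (vertical axis, from 0) of 6 ribosomal protein genes in each library, numbered by replicate, at day 3 (grey) and day 28 (red), with the mean and SD of 3 libraries beside them. The groups are apart for Rpl18, Rplp0 and Rpl22, while the day 3 values of Rpsa and Rps27l enclose those of day 28.

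The level of the set as a whole varied from library to library. The members' mean log2 deviation from each gene's own mean was -0.17, 0.16 and 0.10 in replicates 1 to 3 of day 3, against -0.05, 0.05 and -0.10 at day 28. Day 3 replicate 1 was the lowest library for 48 of 76 members and the highest for 0. Day 3 replicate 2 was the highest for 40 and replicate 3 for 26. The widest gap was therefore within day 3, and the day 28 libraries lay inside it.

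The shift of the library mean made up 48.4% of the variation of the 76 genes, and 60.3% without Rps27l and Rps4l. Of 2850 pairs of members, 96.1% had a positive correlation over the 6 libraries, with a median of 0.678. All pairs share the same libraries and size factors, so these values describe the 6 libraries. Rpl8, which sits near the catalytic centre, followed the mean of the other members most closely (r = 0.986 over 6 libraries), with 2710, 3628 and 3398 normalized counts at day 3, against 2862, 3283 and 2778 at day 28. Rpl10a had r = 0.972, Rpl11 had 0.962 and Rplp1 had 0.960, while Rpl35a (0.074), Rpl22 (0.159) and Rps27l (0.218) had the lowest values. Rpl12, part of the stalk base, was high in day 3 replicate 2 and day 28 replicate 1, with 1041, 1637, 1078, 1481, 1196 and 1170 normalized counts in order. Rps14 had 943.4 in day 3 replicate 1 and 1227 to 1593 in the other libraries.

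As a share of all reads, the members held 0.831%, 1.001% and 0.966% at day 3, against 0.890%, 0.941% and 0.858% at day 28. The mean was 0.933% ± 0.090 (SD, n = 3) at day 3, against 0.896% ± 0.042 at day 28, so that the means differed by less than the SD of the day 3 libraries. The ratio of large to small subunit reads lay between 1.494 and 1.601 in the 6 libraries. Totals ran from 11958137 to 16059196 reads per library, and from 115498 to 151093 of them fell on members.

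**Figure D4:**
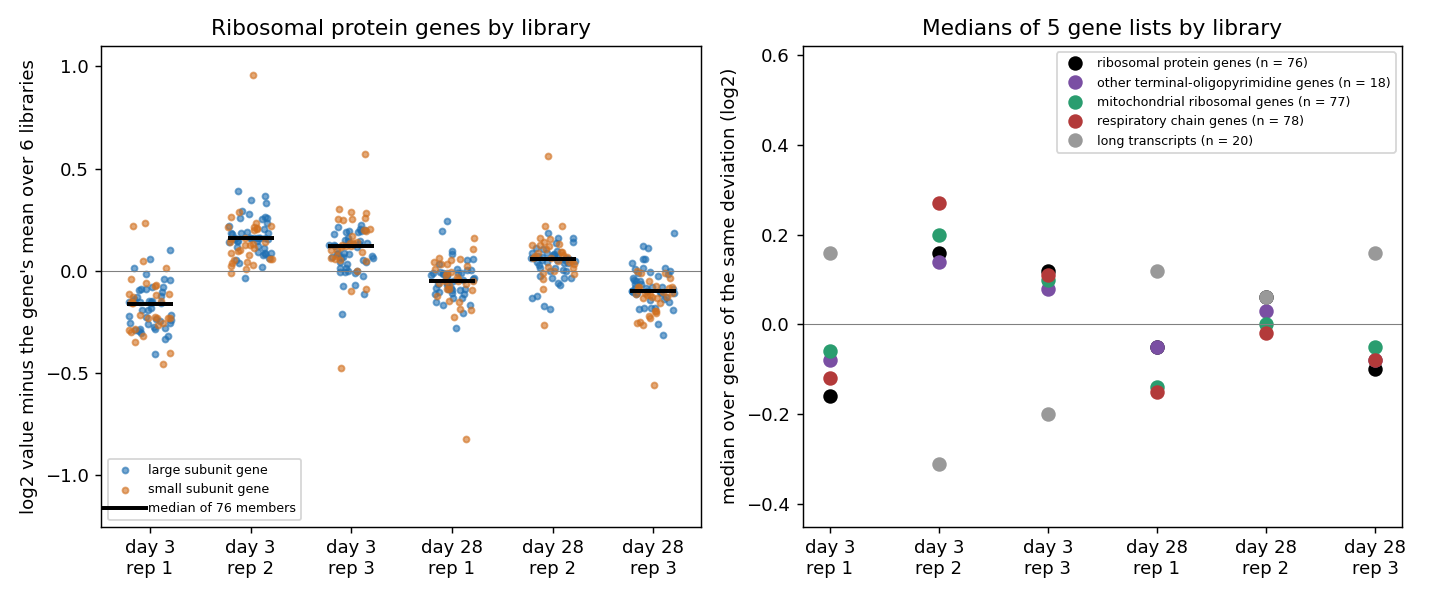
Left, log2 deviation of each of the 76 genes from its own mean over 6 libraries (vertical axis) by library, with the median as a bar. Right, median deviation of 5 gene lists in the same libraries. The ribosomal protein genes were lowest in day 3 replicate 1 and highest in day 3 replicate 2, and long transcripts had the opposite sign in 5 of 6 libraries.

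Other gene lists moved with these library shifts. RNA integrity was not measured here, and levels of 20 long transcripts were listed as a rough stand-in. Mean deviations of the long transcripts were 0.18, -0.32 and -0.21 at day 3, against 0.13, 0.04 and 0.18 at day 28. These transcripts were opposite in sign to the members in every library but day 28 replicate 2. Their differences between the times were positive in 20 of 20, with a median of 0.20 and 0 past the threshold (6 at an unadjusted p under 0.05). Mean deviations of 78 nuclear-encoded respiratory chain genes were -0.12, 0.29 and 0.11 at day 3, against -0.15, -0.05 and -0.07 at day 28. The part of RNA integrity in the members' shifts was not tested. Day 3 replicate 1 also stood apart in 18 interferon-stimulated genes, with a summed level of 7145 normalized counts against 903.8 and 634.1 in the other day 3 libraries and 632.2 to 683.8 at day 28. None of these genes was at 0 reads in any library.

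Day 3 replicate 2 held 12 of 12 liver-made plasma protein genes at a summed level of 111000 normalized counts, against 43.97 and 982.1 in the other day 3 libraries and 1056 to 2008 at day 28. Alb, the defining one, had 65795 reads there and 23 to 1276 elsewhere. The 18 cerebellar genes had summed levels of 47470, 46630 and 12350 at day 3, against 14510 to 18950 at day 28. Gabra6, their granule cell marker, was at 0 reads in day 3 replicate 3 and day 28 replicates 1 and 2. Summed levels of 15 neuroblast and olfactory bulb genes ran from 4210 to 5765 at day 3 and from 6184 to 10360 at day 28, with none at 0. Those of 16 red cell and leukocyte genes ran from 2567 to 5459 and from 2045 to 2464, with 3 to 6 of the 16 at 0 in each library. All 15 brain markers were present in every library. The part of these tissues in the members' values was not tested. The members' median difference was 0.02 without day 3 replicate 2, the library rich in liver transcripts, and -0.16 without day 3 replicate 1. The difference was negative in 32 of 76 members without day 3 replicate 2, in 42 without day 3 replicate 3 and in 41 without day 28 replicate 3, beside 54 with all libraries. Without day 3 replicate 1, 74 of 76 members had a negative difference and 16 had an unadjusted p under 0.05 (18.4% of all tested genes did), with 0 past the threshold. With day 3 replicates 1 and 2 both left out, which leaves 1 library of that day, the median was -0.14.

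Genes that work with the ribosome also had no member past the threshold. Only 0.192% of all tested genes passed it, so 0 in lists of this size says little about the lists. An unadjusted p under 0.05, counted below for each list, was found in 13.4% of all tested genes. Of 18 other genes with TOP transcripts, such as those of elongation factors, 0 passed, 2 had an unadjusted p under 0.05 and the median difference was -0.11. Eef1d, a subunit of the exchange factor of elongation factor 1, had 1116 ± 36.3 and 900.3 ± 56.4 normalized counts (SD, n = 3, limma adjusted p = 0.201), and Nap1l1, a histone chaperone, 3524 ± 325 and 4069 ± 147 (limma adjusted p = 0.369). Mean deviations of the 18 genes, -0.08, 0.12 and 0.07 at day 3, against -0.04, 0.02 and -0.10 at day 28, had the sign of the members' in each library. Of 25 initiation factors, 0 passed (1 at an unadjusted p under 0.05) and the median was -0.05. Eif6, which keeps free 60S subunits from joining and takes part in their assembly, had 548.1 ± 49.9 and 417.6 ± 10.7 (limma log2 difference -0.39, adjusted p = 0.197).

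In the 30 ribosome assembly and rRNA transcription genes the library shifts were smaller. Their mean deviations lay between -0.10 and 0.06, a common shift made up 9.08% of their variation, and the median difference was 0.06 with 0 past the threshold and 0 at an unadjusted p under 0.05. Of 10 noncoding snoRNA host transcripts, several of which also begin with a TOP tract, 0 passed (1 at an unadjusted p under 0.05) and the median was 0.19. Snhg8 had 127.9 ± 16.8 and 182.7 ± 4.31 normalized counts (limma adjusted p = 0.242). Gas5, which is held low by translation-coupled decay, had 719.6 ± 71.3 and 772.2 ± 15.2 (limma adjusted p = 0.715). Among 22 genes of the mTOR pathway and Myc family, 0 passed (2 at an unadjusted p under 0.05) and the median was -0.03. Sesn3, an inhibitor of mTOR complex 1, had a log2 difference of 0.35 (limma adjusted p = 0.197), its relative Sesn1 of -0.24 (limma adjusted p = 0.329) and Eif4ebp1, the translation repressor that mTOR inactivates, of -0.81 (limma adjusted p = 0.381).

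The ribosome of mitochondria uses a separate set of proteins. Of 77 tested genes of that set, 61 had a negative difference, 0 passed (6 at an unadjusted p under 0.05) and the median was -0.11. Mrpl42 had the smallest p, with 621.2 ± 32.0 and 464.8 ± 39.5 normalized counts (limma log2 difference -0.42, adjusted p = 0.163). Their common library shift made up 28.1% of the variation, beside 48.4% for the cytosolic set. It made up 59.1% in the respiratory chain genes and 74.6% in the long transcripts, and none of these differences was tested.

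Of the 7 ribosomal protein genes and paralogs that the symbol rule does not take, 6 were tested and 0 passed (0 at an unadjusted p under 0.05). A common library shift made up 52.9% of their variation, a share that tends to be higher in lists of few genes, such as these 6. Fau encodes a ribosomal protein as a fusion with a ubiquitin-like protein, and Rack1 is a signalling scaffold on the 40S subunit. Their log2 differences were -0.002 (Fau, 95% interval -0.29 to 0.28) and -0.18 (Rack1), and those of Rps3a1, Rpl7l1 and Rpl22l1 were -0.06, -0.12 and 0.13 (limma adjusted p from 0.467 to 0.996). Rpl36al had 0 to 14 reads and was not tested.

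Levels differed far more between genes than between libraries. Per kb of transcript, they ran from 110 normalized counts for Rps4l to 9512 for Rplp1, with a median of 2143. After Rplp1 came Rps15 (6059) and Rpl41 (4555), the latter the gene of the smallest ribosomal protein. The lowest after Rps4l were Rps27l (149), Rpl13a (185), Rpl26 (225) and Rpl29 (249). Lengths came from the shortest principal transcript of GENCODE M21, which for Rps20 is 3706 bases, a length that sets its level of 348.7 per kb.

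Just inside the limit of a mean of 50 lay Rps27l (74.1), Rps4l (86.9), Rpl26 (118.3), Rpl29 (145.3) and Rpl13a (193.4). Just outside it lay Rps10 (26.7), Rpl6l (21.7), Rpl24 (2.87), Rpl32l (1.53) and Rpl3l (1.51). Rpl10l and Rpl39l, copies known mainly from testis, had 0 reads in each of the 6 libraries, which allows up to 3 reads per library by counting error. Rpl3l, a form known from muscle, had 0 to 2 reads. Rps10 and Rpl24 encode core ribosomal proteins, yet Rpl24 had 0 to 6 reads per library and Rps10 12 to 34. The pseudogene Rps10-ps2 was listed at 87.5 normalized counts, above Rps10 itself.

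Near-identical copies make such single levels uncertain. In the median member, 43.5% of the 50-base stretches and 58.6% of the 100-base stretches of a transcript occurred in no transcript of another gene. For Rps27 the share was 1.35%, for Rpl35 4.91%, for Rpl8 92.1% and for Rpl5 6.16% of 50-base stretches. In 25 of 76 members it was under 25%. The share bore little relation to the level per kb (Spearman's rho -0.091 across 76 genes, which are not independent replicates and share libraries) and to the difference between the times (rho -0.18). The table also listed 299 pseudogenes named after these genes, of which 139 had 0 reads and 47 were tested. Their summed level was 4349 normalized counts, or 3.33% of that of the members. Rps2-ps10 alone was at 1448, beside 1906 for Rps2, Rpl3-ps1 at 659.6, beside 3283 for Rpl3, and Rps26-ps1 at 295.4, beside 950 for Rps26. How the authors' counting treated reads that match several places is not given in the sources used here.

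**Figure D5:**
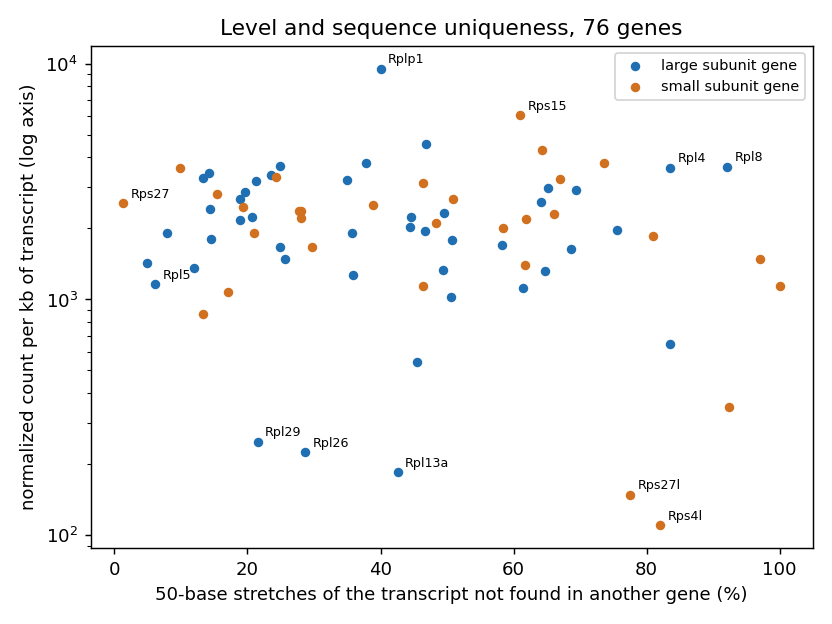
Level per kb of transcript (vertical axis, log scale, normalized counts) against the percentage of 50-base stretches of the transcript that occur in no other gene (horizontal axis) for the 76 genes, coloured by subunit. Rps27 at 1.35% and Rpl8 at 92.1% lie at 2563 and 3655 normalized counts per kb.

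Members with and without the pyrimidine run within 2 bases of an annotated start had nearly the same median difference. The median difference between day 28 and day 3 was -0.05 in the 20 members with such a run and -0.05 in the 35 whose annotated starts had none. Annotated starts can be off by several bases, and 54.5% of the members' starts had a run within 10 bases, against 31.8% within 2. This split therefore cannot separate genes with a TOP tract from genes without one. Across the 76 genes, the rank correlation of the difference with transcript length was -0.1 and with the mean level -0.029.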

How the data were processed

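Poly(A)-selected, stranded RNA-seq libraries of mouse brain were compared, 3 at day 3 and 3 at day 28 after implantation. The authors deposited 1 table of 56748 Ensembl genes whose values are log2(normalized count + 1), as the values show; the build is GRCm39 per the submitters' processing notes, and neither aligner nor counter is given in the sources used here. Reversing the log2 transform gave whole reads for 100% of values (tolerance 0.001 reads), with size factors equal to median-of-ratios factors. Symbols came from GENCODE M21 (52073 of 56748 IDs matched, 15978 of 16162 tested). The 16162 genes whose normalized counts averaged 10 or more were tested with limma 3.58.1 in R 4.3.3, with an intensity trend on the deposited log2 values, 2-sided, with Benjamini-Hochberg adjustment at 0.05 and 4 residual degrees of freedom. Differences are on the log2(normalized count + 1) scale, which understates those of low genes. Libraries held 11958137 to 16059196 reads, and replicates differed by more than sampling noise.

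Members and gene lists were chosen with earlier results of these data known, so counts over them are descriptions. Named members were those with the 6 largest differences in each direction, the 4 highest and 4 lowest levels, the 5 widest spreads, the 4 smallest p, the stalk genes, Rpsa, Rps6, Rps27a and the 5 genes on each side of the mean of 50. Rps9 was added because its groups did not overlap. Rpl8, Rpl5, Rpl11, Rps4x, Rps27, Rpl10a, Rps15, Rpl41, Rps20, Rpl35, Rps2 and Rps26 were added for their role or after their values were seen. Alternatives were other pseudocounts, filters, scalings, variance models, voom on the recovered reads, a replicate block and left-out libraries. The procedure was tested on simulated data. Values of some genes are not reported here.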

Additional observations from a re-analysis of the deposited data

How the results depend on the processing

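In every alternative run, 0 ribosomal protein genes and 0 genes of the other translation lists passed limma's adjusted threshold, while calls over all genes ran from 0 (voom, the replicate block, and without day 3 replicates 1 and 2) to 623 (without day 3 replicate 3), beside 31, with 68 without a filter, 69 with library weights, 3 without an intensity trend and 152 at an adjusted p of 0.1. Leaving out each other library gave 31 (day 3 replicate 1) or 1 to 2 calls. The members' median difference lay between -0.16, without day 3 replicate 1, and 0.02, without day 3 replicate 2, beside -0.04, and was 0.002 with upper-quartile scaling and -0.09 with library weights. Their share of reads, day 28 minus day 3, lay between -0.087 and -0.002 percentage points when those same libraries were left out, beside -0.036. With the replicate number as a block, 0 members passed and the median was -0.04. In deviations from group means, same-numbered libraries correlated at 0.03, 0.13 and -0.06, and day 3 replicate 1 correlated best with day 28 replicate 3. Such deviations sum to 0 over the 3 libraries of a group, so these values cannot decide whether same-numbered libraries were paired.

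Of 23 named members, 12 changed sign somewhere, all with differences that did not pass, and the cause was not tested. With upper-quartile scaling Rpl3 was at 0.0157, Rplp1 at 0.0129, Rpsa at 0.0309 and Rpl4 at 0.0173, and with library weights Rpl12 was at -0.013. Without day 3 replicates 1 and 2, Rps27l was at 0.235, Rps28 at -0.0561 and Rpl13a at -0.0325, the lone day 3 library being assumed to vary like the others. Leaving out 1 library gave ranges of -0.161 to 0.0714 for Rpl3, -0.144 to 0.0628 for Rplp1, -0.165 to 0.0906 for Rpsa, -0.154 to 0.0482 for Rpl4, -0.0595 to 0.266 for Rpl12, -0.0332 to 0.19 for Rpl36, -0.0584 to 0.169 for Rps28, -0.0228 to 0.18 for Rpl13a, -0.0394 to 0.278 for Rpl29, -0.216 to 0.115 for Rpl26, -0.28 to 0.0978 for Rps14, -0.834 to -0.122 for Rps27l and -0.962 to -0.276 for Rps4l. The low read counts of Rps27l and Rps4l went with the widest intervals, which reach past a 2-fold change.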
